A study of Homo sapiens with 4 samples.

Results

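UPRT, DDX50, MAGOHB and STC2 are 4 of 64476 annotated genes. They were chosen by the positions of called peaks, for having HAUSP and HIF-1α at the promoter in H1299 cells and lacking HAUSP there in MDA-MB-231 cells. HAUSP, also called USP7, is a deubiquitinase. It was immunoprecipitated from both H1299, which derives from a non-small cell lung carcinoma, and MDA-MB-231, which derives from a breast adenocarcinoma. HIF-1α was immunoprecipitated from H1299 only. The growth medium in the labels was the same for both lines, no oxygen level was given, and the H1299 input library, the last of the 4 samples, was not analysed here. No input library of MDA-MB-231 was among the samples. Whether the H1299 input served as the control of the calls was not given in the sources used here. Each of the 3 peak lists came from 1 library, so no value has a replicate check. The lists hold positions and scores but no read counts, and sequencing depth is therefore unknown.

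HIF-1α is the oxygen-regulated partner of the HIF-1 dimer, which binds DNA at a short core, ACGTG or GCGTG, known as the hypoxia response element. HAUSP removes ubiquitin from its substrates and has no known DNA-binding domain of its own, so a HAUSP peak marks chromatin where the protein was cross-linked, directly or through other proteins. The members have unrelated functions. UPRT resembles the uracil phosphoribosyltransferases of pyrimidine salvage. DDX50 is a nucleolar DEAD-box RNA helicase and a close relative of DDX21. MAGOHB is a copy of MAGOH, a core subunit of the exon junction complex that marks spliced mRNA. STC2 encodes stanniocalcin 2, a secreted glycoprotein that is known to be induced by hypoxia.

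The sequences below are those that carry the HIF cores in the DNA covered by both H1299 peaks at each member, read from hg19 on the strand of the gene. Both cores were searched on both strands, so that a core of the other strand reads CACGT or CACGC, and the capitals mark them. Cores in exons are shown with short flanks only.

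UPRT, chrX:74493623-74493677: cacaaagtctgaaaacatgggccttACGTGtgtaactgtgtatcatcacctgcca

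UPRT, chrX:74493780-74493834: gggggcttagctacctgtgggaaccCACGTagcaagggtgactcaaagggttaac

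DDX50, chr10:70660991-70661041: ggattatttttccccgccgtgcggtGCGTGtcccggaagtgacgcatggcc

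DDX50, chr10:70661064-70661092, in the 5′ UTR: cccgcttcctttCACGCtgtcgctgcccg

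MAGOHB, chr12:10766238-10766310: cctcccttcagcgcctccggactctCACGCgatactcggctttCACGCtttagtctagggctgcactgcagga

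MAGOHB, chr12:10765990-10766037, in the intron: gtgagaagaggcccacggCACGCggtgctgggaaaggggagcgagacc

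MAGOHB, chr12:10766155-10766183, in the 5′ UTR: ggcgccgggggaCACGTtggctgcgtttt

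STC2, chr5:172756524-172756591: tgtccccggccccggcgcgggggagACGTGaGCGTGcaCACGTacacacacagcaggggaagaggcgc

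STC2, chr5:172756666-172756720: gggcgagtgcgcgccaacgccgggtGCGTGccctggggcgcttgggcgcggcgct

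The rule was applied to a promoter window of 500 bp on either side of the 5′ end of each gene in GENCODE release 44 mapped to GRCh37, whose coordinates are those of hg19. HAUSP of H1299 had a peak there at 3 of the 4 members (DDX50, MAGOHB and STC2), against 1.06% of all genes. HIF-1α had one at 2 (DDX50 and MAGOHB), against 0.276%. HAUSP of MDA-MB-231 had one at 0, against 0.374%. DDX50 and MAGOHB therefore met the rule as written, and UPRT and STC2 did not. The annotated 5′ end of UPRT belongs to a long transcript, UPRT-209, and lies 117697 bp upstream of the start of the canonical transcript, UPRT-203, at which both H1299 peaks lay. At STC2 the HIF-1α peak began 923 bp upstream of the 5′ end of the gene, outside the window. With the start of the canonical transcript as the TSS, 3 members met the rule (UPRT, DDX50 and MAGOHB), and with a window of 1 kb on either side of the 5′ end of the gene, also 3 (DDX50, MAGOHB and STC2). These values chose the members, so they are a description and nothing is read from them. Distances below are from the canonical start, and negative ones are upstream.

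**Figure D1:**
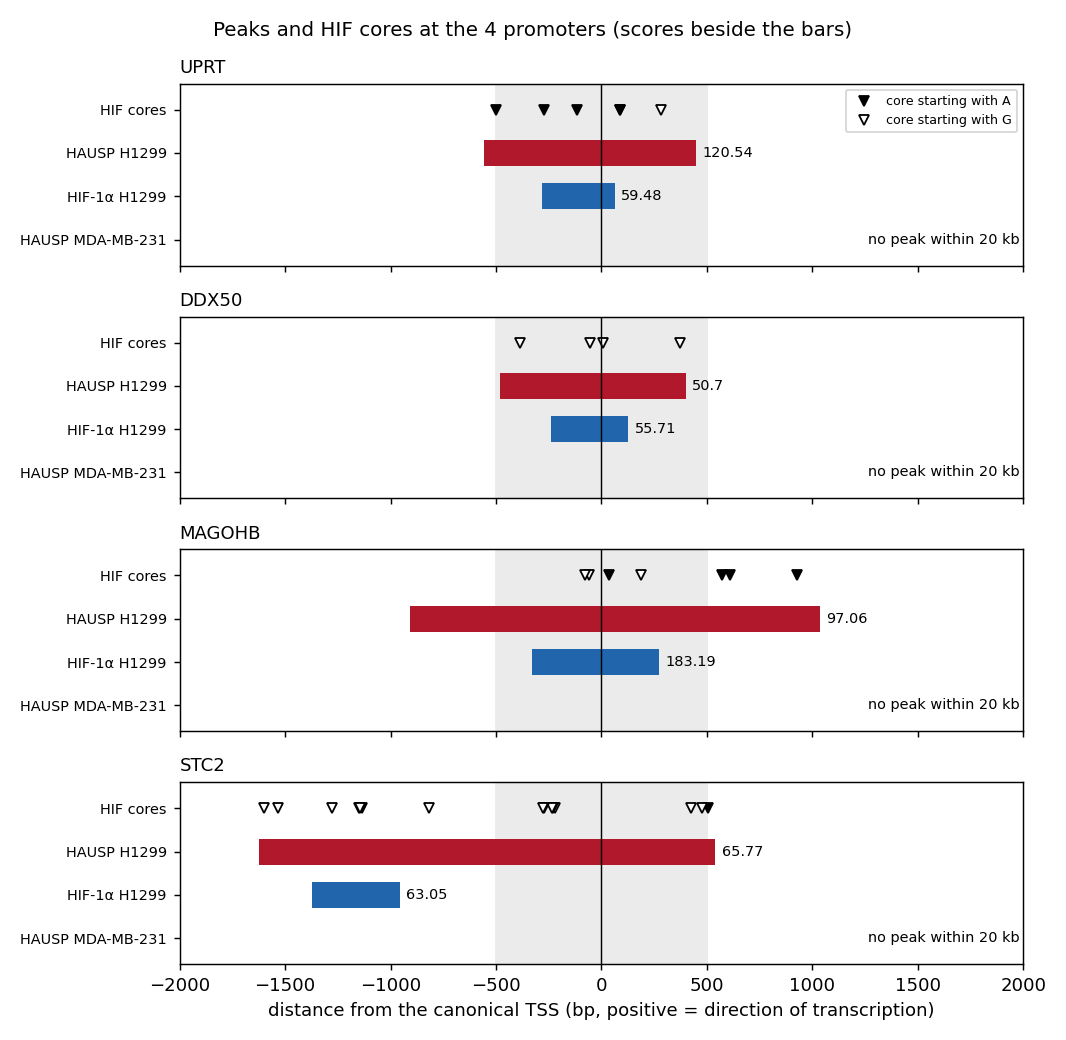
Peaks of the 3 lists and HIF cores at UPRT, DDX50, MAGOHB and STC2, by distance from the canonical TSS in bp along the direction of transcription. Bars span the peaks with their scores beside them, triangles are cores on either strand (filled, ACGTG; open, GCGTG), and the shaded band is 500 bp on either side. The HIF-1α bar lies over the TSS at UPRT, DDX50 and MAGOHB and wholly upstream of the band at STC2, and the row of MDA-MB-231 is empty at all 4.

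UPRT lies on the plus strand of chromosome X from 74376223 to 74524720 (ENSG00000094841). In H1299 HAUSP was called from 74493362 to 74494368, or from -558 to 448 bp of the TSS at 74493920, with a score of 120.54 and rank 292 of 1379. The HIF-1α peak spanned 74493636 to 74493984, from -284 to 64 bp, with a score of 59.48 and rank 1417 of 4054. UPRT thus had the highest HAUSP score of the members, while its HIF-1α score was 9.48 above 50, the score at which the lists begin. Both peaks reached from upstream of the canonical transcript into its first exon (74493920 to 74494475), lay in an intron of UPRT-209, and touched 0 exons of UPRT-209. The nearest HAUSP peak of MDA-MB-231 was 2865072 bp away.

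ACGTG occurred at 5 positions inside the HAUSP peak of UPRT, of which 2 lay in the HIF-1α peak, at 74493648 to 74493652 and at 74493805 to 74493809 on the other strand. The second of these was centred 3 bp from the centre of the HIF-1α peak. Among 20162 windows of the same length, 349 bp, centred on the TSS of protein-coding genes, 25.2% held ACGTG. The overlapping cores at 74494009 to 74494013 and 74494010 to 74494014, which form a palindrome in the 5′ UTR, were inside the HAUSP peak and outside the HIF-1α peak.

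DDX50 lies on the plus strand of chromosome 10 from 70661042 to 70706603 (ENSG00000107625), with the canonical TSS at 70661071. H1299 had a HAUSP peak from 70660589 to 70661471, and its score was 50.7. That is 0.7 above 50, at rank 1335 of 1379, and 44 peaks of the list, or 3.19%, had a lower score. The HIF-1α peak spanned 70660831 to 70661198, from -240 to 127 bp, with a score of 55.71, and 46.5% of the HIF-1α list had a lower score. Both peaks of DDX50 therefore lay close to the lowest scores listed. The nearest HAUSP peak of MDA-MB-231 was 784506 bp away, from 71445577 to 71446408.

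The promoter of DDX50 held 0 copies of ACGTG in either peak or in the window around the canonical TSS. GCGTG occurred at 4 positions in the HAUSP peak, and 2 of them lay in the HIF-1α peak, at 70661016 to 70661020 upstream of the TSS and at 70661076 to 70661080 in the 5′ UTR of the first exon (70661071 to 70661227). The upstream copy was centred 4 bp from the centre of the HIF-1α peak. GCGTG was present in 47.4% of the TSS windows of 368 bp, so the letters alone are common in such sequence.

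MAGOHB lies on the minus strand of chromosome 12 from 10756792 to 10766208 (ENSG00000111196), and its canonical TSS is the 5′ end of the gene. In H1299 HAUSP was called from 10765173 to 10767116, at a score of 97.06 and rank 416. The HIF-1α peak spanned 10765935 to 10766536, from -328 to 273 bp, with a score of 183.19 and rank 35 of 4054. It was the only member whose HIF-1α score was above 100. A further HIF-1α peak, with a score of 70.71, spanned 10756485 to 10757313 over the 3′ end of the gene, held 0 cores of either form, and had no HAUSP peak beside it. Of the members only MAGOHB had a peak within 20 kb of the canonical TSS other than its promoter peaks. The nearest HAUSP peak of MDA-MB-231 was 815094 bp away.

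In the DNA under both promoter peaks of MAGOHB, ACGTG occurred at 10766167 to 10766171 in the 5′ UTR of the first exon (10766038 to 10766208). GCGTG occurred at 3 positions, 10766263 to 10766267 and 10766281 to 10766285 upstream of the TSS and 10766015 to 10766019 in the intron after the first exon. The 4 cores read on the strand opposite to the gene. The core nearest to the centre of the HIF-1α peak was the upstream GCGTG at 10766263, at 30 bp. TSS windows of 602 bp held ACGTG in 37.5% and either core in 73.7%.

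STC2 lies on the minus strand of chromosome 5 from 172741726 to 172755450 (ENSG00000113739), with the canonical TSS at 172755417. The HAUSP peak of H1299, 2163 bp wide, spanned 172754877 to 172757039 with a score of 65.77 and rank 815 of 1379. The HIF-1α peak spanned 172756373 to 172756790, from -1373 to -956 bp, with a score of 63.05 and rank 904 of 4054. The HAUSP peak thus covered the TSS and the upstream DNA bound by HIF-1α, and the HIF-1α peak lay wholly inside it. The region under the HIF-1α peak is upstream of every annotated transcript of STC2. The nearest HAUSP peak of MDA-MB-231 was 213709 bp away, from 172969126 to 172970407, with a score of 61.95.

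The HIF-1α peak of STC2 held 3 cores within 18 bp: GCGTG at 172756556 to 172756560, between copies of ACGTG on opposite strands at 172756549 to 172756553 and 172756562 to 172756566. The copy at 172756562 was centred 17 bp from the centre of the peak. Such a group of 3 cores within 18 bp was present in 12 of the 4054 HIF-1α peaks, or 0.296%, and in 2.21% of the TSS windows of 500 bp on either side, which are longer than most of the peaks. In smaller sets of HIF-1α peaks the share was higher: 7 of the 81 with scores of at least 100 held one, or 8.64%, and so did 3 of the 31 at jointly bound promoters with a HAUSP peak in MDA-MB-231 and 1 of the 25 at those without. It was looked for after the sequence had been seen. Nearer to the TSS, the HAUSP peak held GCGTG at 5 positions from -222 to -277 bp, outside the HIF-1α peak. TSS windows of 418 bp, the width of the HIF-1α peak, held ACGTG in 28.9% and either core in 63.6%. G and C made up 69.1% of the bases of the HIF-1α peak.

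**Figure D2:**
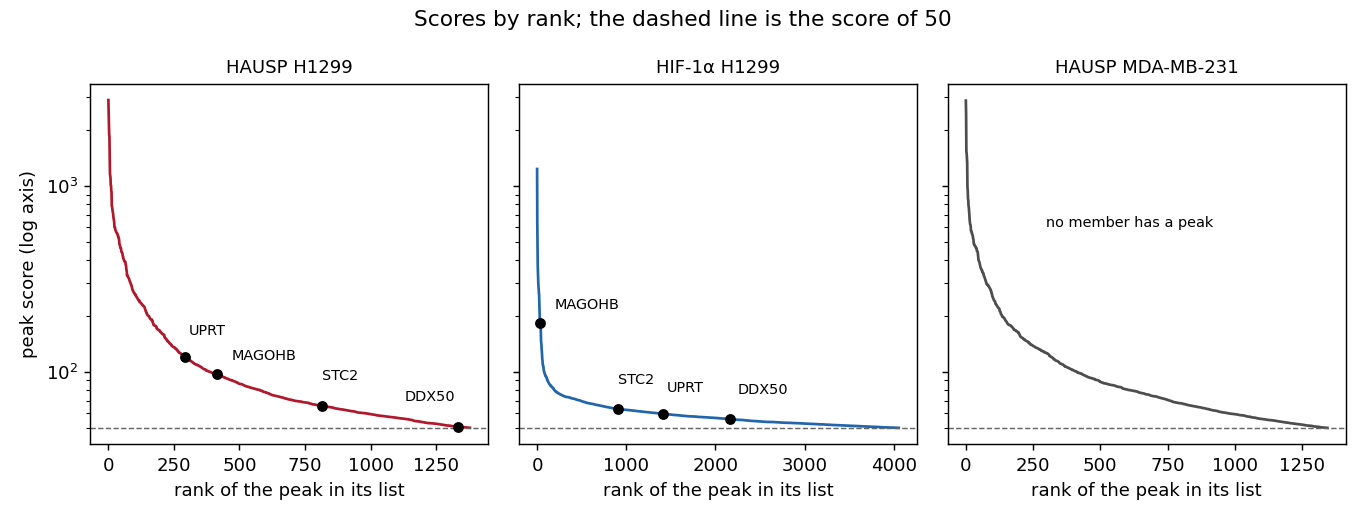
Peak score on a log axis by rank in each of the 3 lists, with the promoter peaks of the members as black points and the score of 50 as a dashed line. DDX50 lies at rank 1335 of 1379 for HAUSP, MAGOHB at rank 35 of 4054 for HIF-1α, and no member has a point in the list of MDA-MB-231.

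The caller of these lists, MACS, writes minus 10 times the log10 of the p-value as the score, and its default p-value of 1e-05 is a score of 50. The lowest scores were 50.03 for HAUSP in H1299, 50.02 for HIF-1α and 50 for HAUSP in MDA-MB-231. A promoter with a weaker enrichment than this in MDA-MB-231 would not be listed, so the absence of a peak is not a measurement of absent binding. Scores under 60 made up 29.2% of the HAUSP list of H1299 and 66.9% of the HIF-1α list. For HAUSP only DDX50 was under 60. For HIF-1α, UPRT and DDX50 were under 60 and STC2 was at 63.05. MAGOHB had neither score near the threshold, and UPRT had only its HIF-1α score near it.

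Across the annotation, 79 genes (0.123%) had peaks of HAUSP and HIF-1α at the promoter window in H1299. Of these, 34 genes (0.0527% of all genes) had no HAUSP peak of MDA-MB-231 in the window and met the rule, which is 43% of the jointly bound genes. Because neighbouring or overlapping annotated genes can share a peak, 25 HAUSP peaks of H1299 lay behind the 34 genes and 31 behind the 45 others. Besides DDX50 and MAGOHB, the protein-coding genes that met the rule were APOLD1, IPO13, ESYT1, ZC3H10, FAM234B, NUMB, ALKBH5, PRELID2, GOLGA8A, TOP3A, SMCR8, CTDP1, ZNF585A, POLL, UFSP2, C4orf47, TTC30A, ASPH, DUS3L, PNISR, POM121C, NRN1 and GTF2IRD2B. No MDA-MB-231 peak lay within 20 kb of any of the 34 TSS. The nearest were 28766 bp from UFSP2, 29036 bp from C4orf47 and 42730 bp from the lncRNA ENSG00000269289. Just outside the rule, the lowest HAUSP scores of MDA-MB-231 at a jointly bound promoter were 51.12 at RNMT, 52.43 at ANKZF1 and 56.32 at ITFG2-AS1.

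The HAUSP scores of H1299 at the 25 peaks without a counterpart in MDA-MB-231 ran from 50.19 to 426.34 with a median of 71.22. At the 31 peaks with a counterpart they ran from 76.24 to 930.15 with a median of 169.6. The groups overlapped, but 14 of the 25 lay below every one of the 31. DDX50 was among the 14. MAGOHB, at 97.06, lay within the range of the peaks with a counterpart, and so did UPRT, at 120.54, which was counted at its canonical TSS only. STC2, at 65.77, lay below that range. The score in H1299 belongs to the contrast that the rule used, so these values are given without a test.

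**Figure D3:**
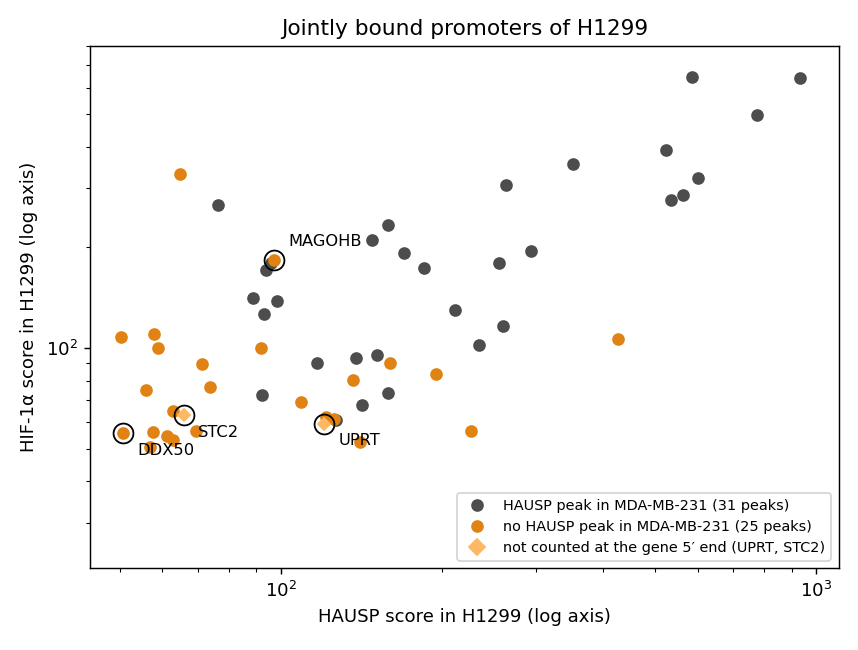
HAUSP score against HIF-1α score in H1299, both on log axes, for the 56 HAUSP peaks at jointly bound promoters. Orange points have no HAUSP peak in MDA-MB-231, dark grey points have one, and the added diamonds are UPRT and STC2, with rings around the members. No grey point lies below a HAUSP score of 76.24, and MAGOHB lies among grey points.

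For HIF-1α, the 25 peaks had scores from 50.77 to 330.39 with a median of 75.13, and the 31 from 60.99 to 644.51 with a median of 179.22. HIF-1α scores under 60 were found at 8 of the 25, including DDX50, and at 0 of the 31. MAGOHB, at 183.19, was above the median of the 31, and of the 25 only the peak at GOLGA8A was higher, at 330.39.

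The share of H1299 HAUSP promoter peaks that also had a peak in MDA-MB-231 was set beside the score. Between 50 and 75, the range of DDX50 and STC2, 0 of 14 jointly bound promoter peaks had one (exact 95% interval 0 to 23.2%), and of promoter peaks without HIF-1α 21 of 274 did, or 7.66%. Between 75 and 100, the range of MAGOHB, 7 of 9 jointly bound peaks had one, or 77.8% (40.0 to 97.2%), and the peaks without one were those at MAGOHB and POLL. Without HIF-1α the share in that range was 14.5%. Between 100 and 150, the range of UPRT, 5 of 10 jointly bound peaks had one, and 32.6% of those without HIF-1α. These shares are built from the peaks that the rule used, and the limit of 75 lies just under 76.24, the lowest score with a counterpart at a jointly bound promoter, so they are a description only.

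**Figure D4:**
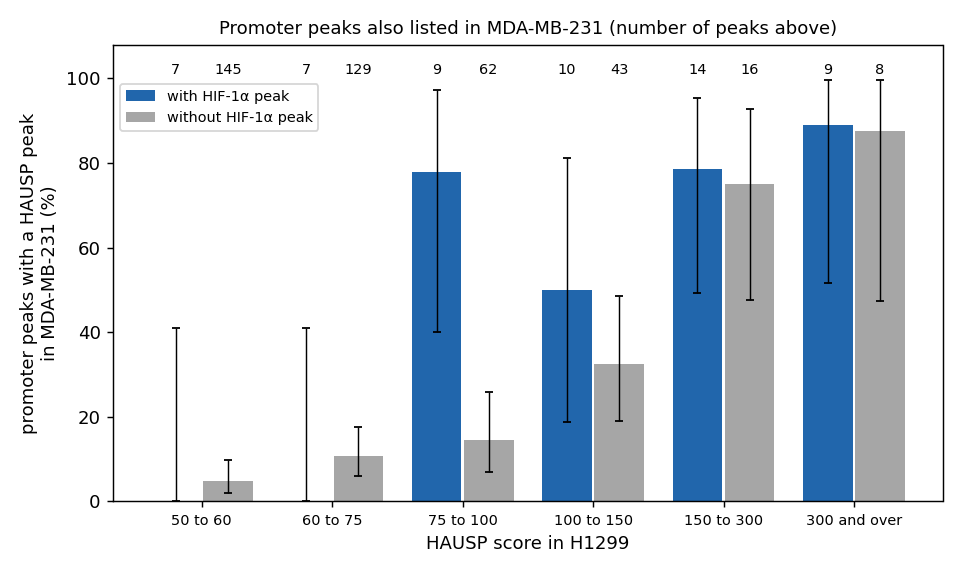
Percent of H1299 HAUSP promoter peaks whose window also held a HAUSP peak of MDA-MB-231, by HAUSP score in H1299, with and without a HIF-1α peak. Bars are shares, lines are exact 95% intervals for counting error, and the numbers of peaks stand above. The bars with HIF-1α are at 0 below a score of 75 and at 77.8% between 75 and 100.

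The cores were not used by the rule. ACGTG was present in the HIF-1α peak at 19 of the 25 promoters without a counterpart in MDA-MB-231, or 76.0%, and at 30 of the 31 with one, or 96.8%. It was present in 30 of the 88 HIF-1α peaks at TSS windows with no HAUSP peak, or 34.1%, in 62 of the 81 with scores of at least 100, or 76.5%, and in 20.7% of all HIF-1α peaks. The 6 without it were those at DDX50, FAM234B, ZNF585A, POLL, TTC30A and POM121C, and each of these held GCGTG. A core of either form lay within 25 bp of the centre of the HIF-1α peak at 11 of the 25, or 44%, and at 16 of the 31, or 51.6%. UPRT, DDX50 and STC2 had such a core and MAGOHB, at 30 bp, did not. The distance to the peak centre was not among the measures planned beforehand. Among HIF-1α peaks at TSS windows with no HAUSP peak, 7 of 88 had one, or 7.95%, and among all HIF-1α peaks 162 of 4054. For scores under 60, the range of UPRT and DDX50, the shares were 4 of 8 at the jointly bound promoters without a counterpart, 2 of 47 at the TSS windows with no HAUSP peak and 3.02% of all such peaks. Width, base composition and closeness to the TSS differ between these sets of peaks, and their part in the shares was not tested.

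Related genes were taken from lists of the members' families and pathways, and their counts stand beside the shares of all genes with a promoter peak, 1.06% for HAUSP in H1299, 0.276% for HIF-1α and 0.374% for HAUSP in MDA-MB-231. These shares include noncoding genes, whereas the listed genes are protein-coding. Of the 64476 genes, 20162 protein-coding ones gave the TSS windows above, whereas 55 of the 79 jointly bound genes were protein-coding. Of 7 other genes of the exon junction complex, 1 had a HAUSP promoter peak in H1299 (EIF4A3, the helicase of the complex, score 57.45), 0 had HIF-1α and 0 had HAUSP in MDA-MB-231. Of 24 other DEAD-box and DEAH-box helicase genes, 4 had a HAUSP peak in H1299: DDX18 (200.06), DHX40 (136.48), DDX41 (76.76) and DDX24 (52.48). Of these only DDX18 had one in MDA-MB-231, with a score of 93.6, and 0 of the 24 had HIF-1α. Of 14 other genes of pyrimidine salvage and synthesis, 0 had a promoter peak in any list. The closest relatives of the members had none either: the nearest HAUSP peak of H1299 was 54420 bp from the TSS of DDX21, where it was the promoter peak of the neighbouring DDX50 itself, 534571 bp from that of MAGOH and 509145 bp from that of STC1.

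STC2 belongs with 25 other known HIF-1 targets and hypoxia-response genes. This list, like those above, was chosen with earlier results of these data known, so its counts are a description only. Of the 25, 6 had a HAUSP promoter peak in H1299, 5 a HIF-1α peak and 5 a HAUSP peak in MDA-MB-231, against 1.06%, 0.276% and 0.374% of all genes. Both H1299 peaks were present at 5 of the 25, against 0.123% of all genes. These 5 were KDM3A and KDM4B, both histone demethylases, P4HA1, a collagen prolyl hydroxylase, DDIT4, an inhibitor of mTORC1, and ANKRD37. Each of these also had a HAUSP peak in MDA-MB-231, with scores from 79.77 at DDIT4 to 574.36 at KDM3A. VEGFA, the angiogenic growth factor, had a HAUSP peak in H1299 only, with a score of 52.18. At canonical starts 7 of the 25 had both peaks, and KDM4C, another histone demethylase, was the only one of them without a HAUSP peak in MDA-MB-231, with scores of 216.29 for HAUSP and 67.46 for HIF-1α in H1299.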

How the data were processed

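ChIP-seq peak lists of HAUSP in MDA-MB-231 and in H1299 and of HIF-1α in H1299 were used, with 1 library each. Reads were mapped by the authors with Bowtie 0.12.7 (genome build hg19). They called peaks with MACS 1.4.2 at default parameters and deposited a score for each peak. Duplicates are named as removed for the HIF-1α list only. Starts were converted to count from 1. Genes came from GENCODE release 44 mapped to GRCh37, and a peak counted at a promoter when it overlapped the window by at least 1 bp. No test was run, since the rule used the lists and none has a replicate. The overlap search was checked on simulated peaks, and the core search on a short made-up sequence with ACGTG only. The members, lists and alternatives (48 planned, 6 added for canonical starts after seeing the data) were chosen with earlier results of these data known. Named genes are the members, genes that met the same rule, those nearest to its edge, and listed relatives with a promoter peak. GOLGA8A and the promoters lacking ACGTG were named after their values were seen. Sequence was read with samtools 1.23.1 and pysam 0.24.0, intervals were computed with scipy 1.17.1, and tables and plots were made in Python 3.11.15 with pandas 2.3.3, matplotlib 3.10.9 and numpy 2.4.6.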

Additional observations from a re-analysis of the deposited data

How the results depend on the processing

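No paired analysis was possible because there was 1 library per list and no replicate number. The score threshold moved the counts most. With scores of at least 70 in the 3 lists, 1 of the 4 members met the rule (MAGOHB) and 21 genes did so in all. With scores of at least 100, 0 members and 10 genes in all met it, and 29 genes were jointly bound. The cut also removed MDA-MB-231 peaks, so the gene counts include genes with a listed peak below it. Examples are RNMT (51.12) at the cut of 70 and SAP30 (85.6) at 100. Of the 34 genes that met the rule without a cut, only GTF2IRD2B had both H1299 scores of at least 100 (426.34 for HAUSP and 106.78 for HIF-1α). The 5 copies of ACGTG in the DNA under both peaks of the members became 12 with GCGTG added, and 1 when the window of 500 bp around the 5′ end of the gene was searched. Under the other windows, starts and rules on MDA-MB-231 that were run, 2 or 3 members met the rule, and 29 to 44 genes did. Over the alternatives run for each, the median HAUSP score of the promoter peaks without a counterpart ranged from 70.3 to 84.8. Their median HIF-1α score ranged from 72.1 to 75.5. The share of jointly bound genes without a counterpart ranged from 42.3% to 49.2% where no score cut was made. With the cuts of 70 and 100 it was 38.9% and 34.5%, but an MDA-MB-231 peak below the cut then counted as absent. Those shares are therefore not shares of genes without a listed peak. Depth was unknown, so no value was weighed by it.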

Other observations

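Of the 25 HAUSP peaks at jointly bound promoters without a counterpart in MDA-MB-231, 5 lay on chromosome 12, at MAGOHB, APOLD1, FAM234B, PHLDA1-DT and the shared start of ESYT1 and ZC3H10, and 1 jointly bound peak of that chromosome had a counterpart. The whole HAUSP lists held 87 peaks on chromosome 12 in H1299 and 44 in MDA-MB-231, a ratio of 1.98, the highest of the chromosomes compared, and 55 and 77 on chromosome 10, which carries DDX50. Copy number was not measured here. UFSP2 and C4orf47, which met the rule, start 28766 and 29036 bp from a HAUSP peak of MDA-MB-231, and ANKRD37, on the same chromosome at 186317175, had peaks of all 3 lists.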
